A study of Homo sapiens with 40 samples.

Results

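The chromatin of 8 genes that run or govern the synthesis of cholesterol and fatty acids was compared between non-senescent and senescent human beta-like cells. The genes were SREBF1, SREBF2, HMGCS1, SQLE, INSIG1, FASN, SCD and ACACA, out of 19676 protein-coding genes in GENCODE 44. Every peak of H3K27ac, an acetylated histone found at active promoters and enhancers, was taken that lay within 2 kb of one of their start sites (promoter), inside the gene (gene body), or closer to one of their start sites than to that of any other protein-coding gene, within 100 kb (nearest). This gave 84 of 51489 H3K27ac peaks. The same rule gave 28 of 51457 peaks of CTCF, the DNA-binding protein that helps to form chromatin loops, 14 of 14886 enhancers listed in non-senescent cells, 15 of 13076 enhancers listed in senescent cells, and 1 of 2435 regions listed for the retinoblastoma protein Rb as enriched in senescent over non-senescent cells. The rule used positions and no measured value.

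The cells were EndoC-βH3, a human beta-cell line made from fetal pancreas that carries immortalizing transgenes (hTERT and SV40 large T) which a tamoxifen-inducible Cre recombinase can remove. Both states therefore descend from 1 line with the same transgenes. Senescent cells had received 4-hydroxytamoxifen for 3 weeks and non-senescent cells had not, so that excision of the transgenes, exposure to the drug and senescence cannot be told apart. H3K27ac and CTCF were each measured by ChIP-seq in 3 libraries per state, and H3K4me1 (a histone mark of enhancers) and Rb in 2 libraries per state, each with its own input library, 40 libraries in all.

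Cells make cholesterol and fatty acids from acetyl-CoA, and both routes are switched on by the SREBP transcription factors, which SREBF1 and SREBF2 encode. SREBPs are made as membrane proteins of the endoplasmic reticulum. When sterols are plentiful, INSIG proteins hold the escort protein SCAP there. When sterols run low, SCAP carries SREBP to the Golgi, where the proteases encoded by MBTPS1 and MBTPS2 release the active factor. HMGCS1 acts near the start of the cholesterol route, and SQLE epoxidizes squalene later in it. ACACA makes malonyl-CoA, FASN builds palmitate from it, and SCD puts the first double bond into the product. In beta cells, cholesterol is a component of insulin granules and the plasma membrane, and malonyl-CoA restrains fatty acid oxidation when glucose is high.

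The deposited tables give, for each peak, 1 mean normalized read count over the libraries and 1 log2 fold change of senescent over non-senescent cells with its standard error (SE). They hold no values of single libraries, so levels by library, their overlap and the depth of each library are not shown here. The median peak held 119.0 normalized counts for H3K27ac and 58.6 for CTCF, with a median SE of 0.19 and 0.29 on the log2 scale. The labels do not say that the libraries came from separate cultures, and each SE and p therefore measures a spread between libraries that may be technical. Because counts were scaled by size factors, a rise or fall shared by most peaks of a mark cannot be seen, and in bulk samples a change in the share of cells that carry the mark cannot be told apart from a change in each cell. Peaks were termed gained or lost in senescent cells when the fold change exceeded 1.5 and the adjusted p of the DESeq2 comparison was under 0.05 (H3K27ac) or 0.2 (CTCF). The beta-cell label was checked on promoter peaks. All 10 beta-cell marker genes had an H3K27ac peak at the promoter, INS and PDX1 included, 1 of them gained (IAPP). Across all 19676 protein-coding genes, 13059 had such a peak. Of 12 markers of other cell types, 7 had none (GCG, PRSS1, SOX9, COL1A1, PDGFRB, PECAM1 and PTPRC). The other 5 had one, of up to 1498 counts (CPA1), 3 of them lost (SST, HHEX and KRT19). Their part in the results below was not tested.

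Promoter sequences are shown for 4 genes because the promoters are where the mark was strongest, and because SREBPs act through short sterol elements that often stand beside CCAAT boxes (bound by NF-Y) and GC boxes (bound by Sp1). RefSeq promoter windows of 300 bases (GRCh38.p14, 250 before the start) were found for 6 of the 8 genes, not for FASN and SQLE. The stretches end before any annotated exon of a protein-coding gene and are printed 5′ to 3′ on the gene's strand. Capitals mark matches to the sterol element TCACNCCAC or to the CCAAT box, searched on both strands, so that a CCAAT box on the opposite strand reads ATTGG. They lie at chr22:41832855-41833104 (plus strand, SREBF2), chr5:43313513-43313662 (minus, HMGCS1), chr7:155297628-155297775 (plus, INSIG1) and chr10:100346983-100347232 (plus, SCD).
SREBF2: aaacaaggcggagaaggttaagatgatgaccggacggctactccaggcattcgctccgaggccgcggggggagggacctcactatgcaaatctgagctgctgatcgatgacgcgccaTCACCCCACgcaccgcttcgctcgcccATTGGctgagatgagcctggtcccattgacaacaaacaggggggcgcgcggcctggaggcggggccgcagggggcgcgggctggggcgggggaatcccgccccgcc
HMGCS1: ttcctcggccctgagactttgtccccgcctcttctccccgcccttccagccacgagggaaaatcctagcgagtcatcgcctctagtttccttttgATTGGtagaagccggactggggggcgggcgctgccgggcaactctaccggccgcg
INSIG1: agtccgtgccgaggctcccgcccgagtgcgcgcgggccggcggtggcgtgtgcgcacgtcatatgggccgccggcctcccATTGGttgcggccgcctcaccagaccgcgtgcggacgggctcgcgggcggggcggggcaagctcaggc
SCD: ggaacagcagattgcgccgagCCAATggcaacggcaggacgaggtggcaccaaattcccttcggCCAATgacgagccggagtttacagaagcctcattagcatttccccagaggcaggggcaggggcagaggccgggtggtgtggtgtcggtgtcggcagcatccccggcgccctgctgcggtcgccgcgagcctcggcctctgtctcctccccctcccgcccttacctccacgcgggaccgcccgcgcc

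In the full 300-base windows, the sterol element matched once, at SREBF2, and 1.13% of all 35116 RefSeq promoter windows hold it. The CCAAT box, held by 34.6% of all windows, matched at SREBF2 (1 match), HMGCS1 (2 and 0 in separate windows), INSIG1 (1) and SCD (2). At ACACA it matched in the windows of the internal promoters (1 and 2) but not in the canonical one. It did not match at SREBF1. The GC box GGGCGG, held by 45% of all windows, matched in the windows of all 6 genes. No match says only that these letters are not in the window.

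None of the 8 genes had a promoter H3K27ac peak that was called gained or lost. The 8 genes held 15 promoter peaks, of which 7 passed the adjusted p, all with fold changes under 1.5, and 8 had an unadjusted p under 0.05. Of all promoter peaks, 42.3% passed the adjusted p with no fold threshold and 14.3% were called (4.53% gained and 9.81% lost). Of all H3K27ac peaks of any position, 39.2% passed it and 22.6% were called (9.47% gained and 13.1% lost). The median log2 fold change was -0.024 over the 15 promoter peaks and 0.033 over all 14007 promoter peaks. The plot of all 84 peaks by gene shows the promoter peaks of every gene between the dotted lines.

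**Figure D1:**
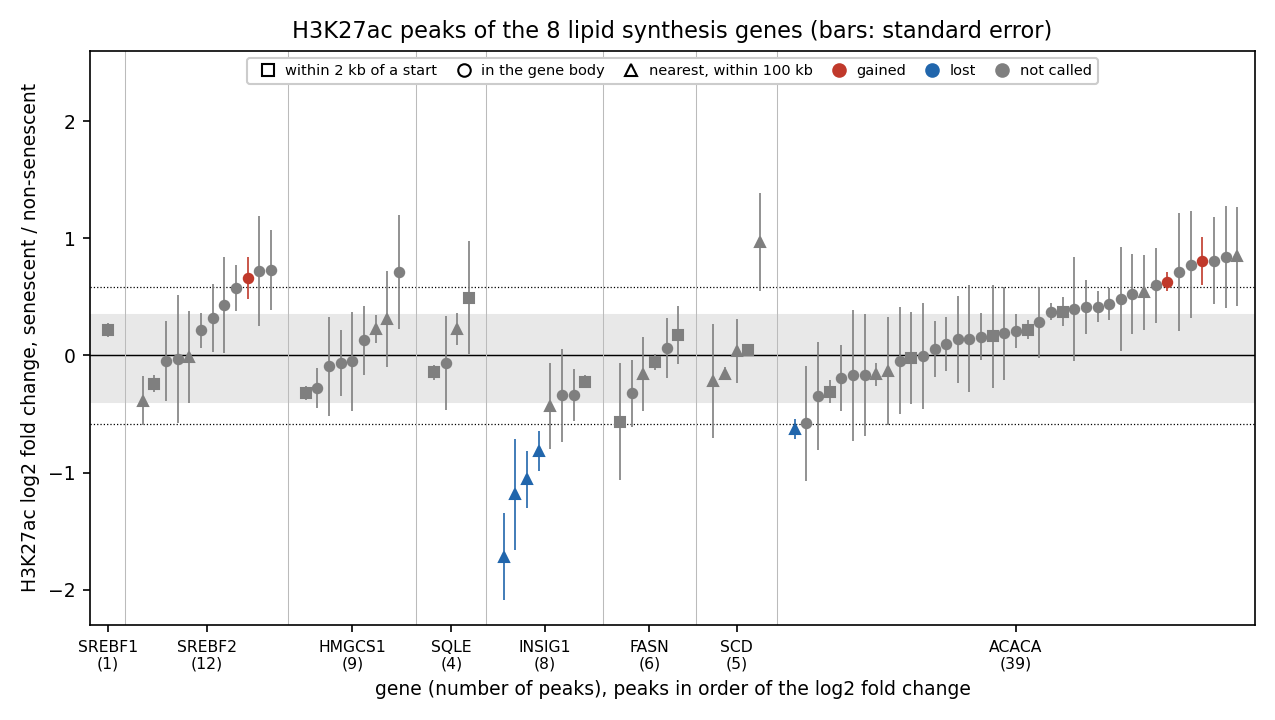
Log2 fold change (senescent over non-senescent) of each H3K27ac peak of the 8 genes, ± SE, ordered within each gene; squares are promoter peaks, circles gene-body peaks and triangles nearest peaks, coloured by call. The grey band is the interquartile range of all 51489 peaks (-0.39 to 0.34) and dotted lines mark a fold change of 1.5. All 8 INSIG1 peaks lie below 0, and 27 of the 39 ACACA peaks lie above it.

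The 2 genes for the transcription factors had log2 fold changes of opposite sign at their promoters. At SREBF1, 1 peak of 41351 bp (chr17:17806632-17847982) covered the whole gene and parts of the neighbouring RAI1 and TOM1L2. It held 13950 normalized counts, rank 6 of all H3K27ac peaks by count and rank 5 by width. Its log2 fold change was 0.22 (SE 0.06, adjusted p = 6.04e-04), a fold change of 1.16. At SREBF2, the promoter peak (chr22:41831027-41836885, 5859 bp), which holds the sterol element shown above, carried 3599 counts. Its log2 fold change was -0.24 (SE 0.08, adjusted p = 0.00513), which is 1.18-fold lower. Per kilobase of peak, the level was 614.3 counts at SREBF2 and 337.4 at SREBF1. Neither was called.

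The introns of both genes hold a microRNA of the miR-33 family, known for repressing the cholesterol exporter ABCA1, and the mature sequences are shown because their seeds (bases 2 to 8, in capitals) are the same. RefSeq places them at chr22:41900949-41900969 (plus strand) and chr17:17813897-17813916 (minus strand).
hsa-miR-33a-5p: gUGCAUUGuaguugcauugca
hsa-miR-33b-5p: gUGCAUUGcuguugcauugc

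MIR33B lay inside the wide SREBF1 peak. MIR33A lay 14611 bp from the closest H3K27ac peak, a weak one of 26.83 counts in an SREBF2 intron.

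SREBF2 also had a gained peak. It lay in an intron 24770 bp downstream of the start (chr22:41857875-41860834, 145.9 counts), and its log2 fold change was 0.66 (SE 0.18, adjusted p = 0.00100), a fold change of 1.58. A CTCF peak of 35.55 counts that overlaps it had a log2 fold change of -0.03 (SE 0.36). An intronic peak closer to the start (chr22:41845542-41847927, 108.9 counts) passed the adjusted p (0.0124) with a log2 fold change of 0.57 (SE 0.20), just under the fold threshold. Of the 12 SREBF2 peaks, 7 were higher and 5 lower in senescent cells, between -0.39 and 0.73. The lower end was an upstream peak inside CCDC134 (SE 0.21, adjusted p = 0.131) and the upper end a peak of 37.32 counts over an SREBF2 exon (SE 0.34, adjusted p = 0.0754).

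INSIG1, the sterol-responsive anchor that keeps SCAP and SREBP in the endoplasmic reticulum, was the gene with the most lost peaks. Of its 8 H3K27ac peaks, 4 were lost and 0 gained, against 13.1% and 9.47% of peaks across the genome. The 4 were all nearest peaks, and of all nearest peaks outside protein-coding genes 19.7% were lost. All 8 had negative log2 fold changes, with a median of -0.62. The 4 lost peaks lay outside named genes and stood on both sides of INSIG1. Overlap with unnamed genes was not recorded. The promoter peak (chr7:155294963-155305108, 10146 bp, 3860 counts) had a log2 fold change of -0.22 (SE 0.06, adjusted p = 4.26e-04) and was not called.

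The strongest of the lost peaks lay 61610 bp from the closest INSIG1 start on the upstream side (chr7:155234048-155236166, 181.1 counts). Its log2 fold change was -0.82 (SE 0.17, adjusted p = 1.65e-05), and an enhancer was listed there in both states. The deepest loss lay 45890 bp from the closest start on the downstream side (chr7:155344451-155345497, 42.32 counts), with a log2 fold change of -1.72 (SE 0.37, adjusted p = 2.85e-05), 3.29-fold lower. An enhancer was listed at this place in non-senescent cells only, and the region sat inside a strong CTCF peak of 404.5 counts whose own log2 fold change was -0.14 (SE 0.12, adjusted p = 0.554). Another, 34710 bp downstream (chr7:155333271-155334637, 69.25 counts), had a log2 fold change of -1.06 (SE 0.24, adjusted p = 8.53e-05). The weakest, 82865 bp upstream (chr7:155214412-155214911, 19.84 counts), had -1.19 (SE 0.47, adjusted p = 0.0339), and it was not called at an adjusted p under 0.01, or when the median of its GC-content decile was subtracted (-1.08).

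The link of these peaks to INSIG1 is one of distance alone. When start sites of all transcripts were used in place of protein-coding ones, 1 of the 4 lost peaks (the one at 34710 bp) still had INSIG1 as its nearest gene, 1 was nearest to BLACE and 2 to unnamed genes. Within 500 kb of the INSIG1 start there were 19 H3K27ac peaks, of which 5 were lost and 4 were gained, and 8 were higher in senescent cells.

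The 1 Rb region of these genes was also at INSIG1 (chr7:155298214-155298441, 228 bp). It began 336 bp downstream of the canonical start, inside the promoter H3K27ac peak, and 183 of its bases fell in exon 2. The list gives no height or p for it, and it was drawn from 2 senescent libraries set against the 2 non-senescent ones.

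ACACA, the acetyl-CoA carboxylase that commits carbon to fatty acids, is the longest of the 8 genes (321845 bp) and held 39 of the 84 H3K27ac peaks. Of these, 2 were gained and 1 was lost, against 9.47% and 13.1% of all peaks, and 27 were higher in senescent cells, with a median of 0.21. Both gained peaks lay in the gene. One lay 270921 bp downstream of the canonical start (chr17:37129263-37135915, 791.4 counts, over an ACACA exon) with a log2 fold change of 0.63 (SE 0.08, adjusted p = 7.13e-13), and an enhancer was listed there in both states. The other, an intronic peak at 228213 bp (chr17:37176152-37178623, 115.5 counts), had 0.80 (SE 0.20, adjusted p = 3.97e-04) and lay in no listed enhancer. The lost peak (chr17:37049027-37056822, 736.3 counts) lay beyond the end of ACACA, inside the neighbouring gene AATF and over an AATF exon, with a log2 fold change of -0.63 (SE 0.09, adjusted p = 4.95e-12). It counts as an ACACA peak only because an ACACA start site is the closest protein-coding one, 32161 bp away; by the start sites of all transcripts it belongs to AATF.

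Another 3 ACACA gene-body peaks passed the adjusted p with fold changes under 1.5, all higher in senescent cells. The strongest (chr17:37106462-37114993, 1293 counts) had a log2 fold change of 0.37 (SE 0.07, adjusted p = 1.87e-06). The peaks at chr17:37161889-37166635 (285.4 counts) and chr17:37272575-37275668 (237.5 counts) had 0.42 (SE 0.13) and 0.44 (SE 0.14). The highest ACACA value was 0.84 (SE 0.42, adjusted p = 0.0984), at a weak peak of 30.5 counts between ACACA and AATF.

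ACACA is transcribed from several promoters, and the log2 fold changes at these differed in sign, a difference that was not tested itself. At the canonical upstream start, shared with TADA2A on the other strand, the peak (chr17:37405227-37408690, 887.6 counts) had a log2 fold change of -0.31 (SE 0.10, adjusted p = 0.00511). At the internal promoter that carried the most reads (chr17:37355469-37361148, 1738 counts), it was 0.22 (SE 0.08, adjusted p = 0.0165). At an annotated start near the 3′ end of the gene (chr17:37089122-37095052, 327.2 counts), it was 0.37 (SE 0.12, adjusted p = 0.00883). The other 2 promoter peaks held 21.26 and 25.81 counts, with log2 fold changes of 0.16 (SE 0.44) and -0.02 (SE 0.39).

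**Figure D2:**
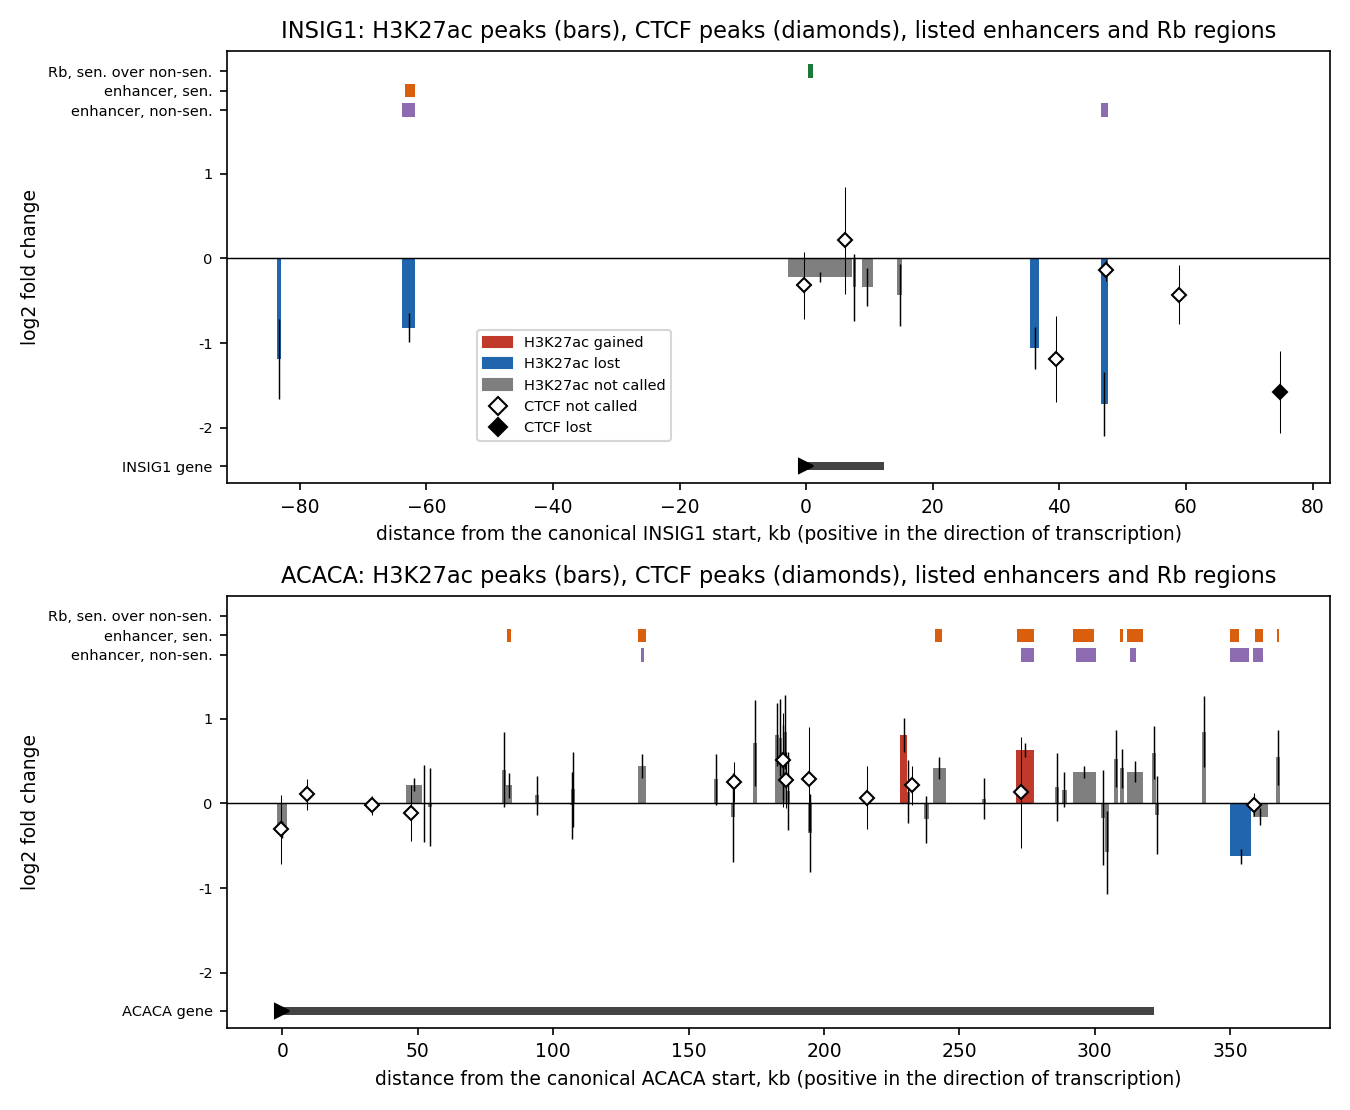
Log2 fold change (senescent over non-senescent, ± SE) of the H3K27ac peaks (bars, as wide as the peak, with narrow peaks widened to be visible) and CTCF peaks (diamonds) of INSIG1 and ACACA by distance from the canonical start, with the enhancers listed in each state and the Rb region above and the gene body below. The 4 lost INSIG1 peaks (-1.72 to -0.82) stand outside the gene on both sides, and the 2 gained ACACA peaks (0.63 and 0.80) stand in the 3′ part of the gene.

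The enzymes HMGCS1, SQLE, FASN and SCD had 0 called H3K27ac peaks among their 9, 4, 6 and 5, by DESeq2 at the thresholds above, and 1, 1, 0 and 2 of these had an unadjusted p under 0.05. The largest change in relation to its error was at the HMGCS1 promoter (chr5:43306290-43316359, 3076 counts), with a log2 fold change of -0.32 (SE 0.06, adjusted p = 5.63e-07), which is 1.25-fold lower. The other HMGCS1 peaks ranged from -0.28 to 0.71 (the latter with 17.93 counts and SE 0.49). At the SQLE promoter (chr8:124996120-125006537, 2948 counts), the log2 fold change was -0.14 (SE 0.06, adjusted p = 0.0525). The other SQLE peaks had 0.49 (SE 0.48), -0.06 (SE 0.40) and 0.23 (SE 0.14).

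The FASN promoter peak (chr17:82086409-82103001, 16593 bp, 2964 counts), which also covers a promoter of CCDC57, had a log2 fold change of -0.06 (SE 0.07, adjusted p = 0.538), with a 95% interval of -0.20 to 0.08. Its sign turned (0.045) when the median of its GC-content decile was subtracted. The other FASN peaks ranged from -0.57 to 0.17, the lower end with 17.75 counts and SE 0.50. The SCD promoter peak was 28215 bp wide (chr10:100338448-100366662), covered the whole gene and held 6444 counts, rank 101 by count and 31 by width. Its log2 fold change was 0.04 (SE 0.05, adjusted p = 0.536), with a 95% interval of -0.06 to 0.14. A second wide SCD peak over the start site of the noncoding gene OLMALINC (chr10:100368579-100377644, 4956 counts) had -0.15 (SE 0.06, adjusted p = 0.0158). Between the pair, a peak of 24.47 counts had 0.97 (SE 0.42, adjusted p = 0.0536). The lowest SCD value was -0.22 (SE 0.49), at a peak of 16.28 counts.

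Over all 84 H3K27ac peaks, 3 were gained and 5 were lost, against 9.47% and 13.1% of all peaks, and 46 were higher and 38 lower. The median log2 fold change was 0.081, against 0.0075 over all peaks. The 49 gene-body peaks had a median of 0.19 (0.052 over all gene-body peaks), with 3 gained and 0 lost (11.4% and 11.1% over all gene-body peaks). The 20 nearest peaks had a median of -0.16, with 0 gained and 5 lost. Over all nearest peaks outside protein-coding genes, the median was -0.13, with 10.1% gained and 19.7% lost. That class is narrower, because some of the 20 lay inside AATF, CCDC134 or WASHC5, the lost peak in AATF included. ACACA supplied most of the gene-body peaks and INSIG1 4 of the 5 lost ones. None of the 8 calls held in a test against a fold change of 1.5, in which 2391 peaks were called across the genome.

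Many of the peaks were weak, with a median of 45.81 counts against 118.7 for all. Of the 39 with a mean count of at least 50, 6 were called (3 gained and 3 lost), against 25.5% of all such peaks. The 6 peaks at least 10 kb wide were the promoter peaks of SREBF1, HMGCS1, SQLE, INSIG1, FASN and SCD. None of them was called, against 7.54% of the 809 such peaks across the genome. Of these 6, 4 had an unadjusted p under 0.05.

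**Figure D3:**
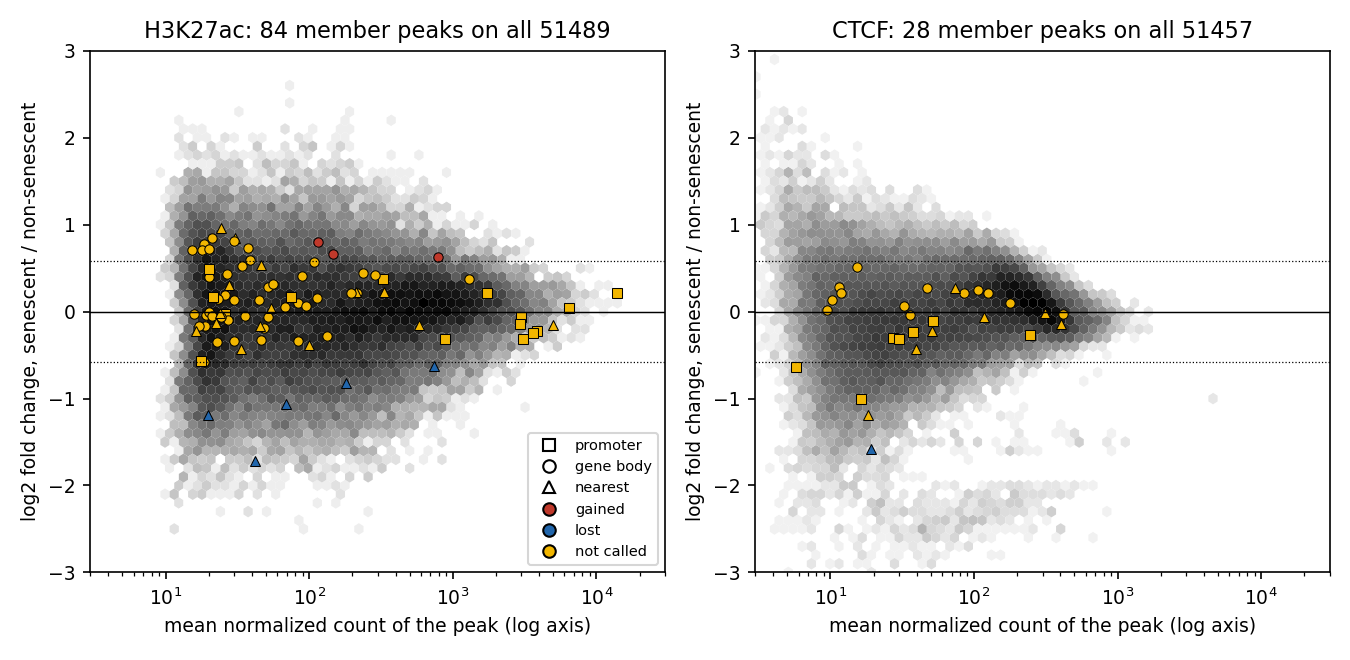
Mean normalized count (log axis) against log2 fold change (senescent over non-senescent) for all H3K27ac peaks (left) and all CTCF peaks (right), as grey density, with the peaks of the 8 genes as symbols by position and call; a few peaks of other genes fall outside the axes. The promoter peaks with the most H3K27ac reads lie within a fold change of 1.5 (dotted lines), and the 1 lost CTCF peak is among the weak ones.

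CTCF was lost at 1 and gained at 0 of the 28 peaks of these genes, against 5.58% of CTCF peaks called across the genome (2.29% gained and 3.28% lost). The deposited table has no adjusted p for 8 of the 28. At these thresholds it holds more gained and more lost peaks than the paper reports for sites with the CTCF motif. These shares are therefore not those of motif sites alone. The lost peak lay outside named genes, 73962 bp downstream of the closest INSIG1 start (chr7:155372523-155372830). It held 19.23 counts and had a log2 fold change of -1.58 (SE 0.48, adjusted p = 0.0389), 2.98-fold lower. By the start sites of all transcripts it was nearest to BLACE. With the median of its GC-content decile subtracted, its log2 fold change was -1.27 and it was not called. A weaker INSIG1 peak of 18.27 counts, 38553 bp from the closest start, had -1.19 (SE 0.50) with no adjusted p. No peak of the 8 genes had a called change of both H3K27ac and CTCF.

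All 7 CTCF promoter peaks (of ACACA, FASN, INSIG1, SQLE and SREBF1) had negative log2 fold changes, with a median of -0.31, and 0 of them were called or had an unadjusted p under 0.05 (DESeq2), against 4.91% called of all CTCF promoter peaks. The table has no adjusted p for 2 of the 7. The median over all CTCF promoter peaks was -0.17. These 7 peaks had a median GC content of 71.3%, and over all CTCF peaks in the highest GC decile (63.5% and above) the median was likewise -0.31. With the GC-decile medians subtracted, the values at the internal ACACA promoter (-0.11) and the FASN promoter (-0.23) turned positive (0.20 and 0.075). The strongest of the 7 was at SREBF1 (chr17:17811901-17813148, 244.6 counts), with -0.27 (SE 0.15, adjusted p = 0.319). This peak lay 23838 bp downstream of the canonical SREBF1 start and counts as a promoter peak through another annotated start. A FASN peak of 5.75 counts likewise lay 17301 bp downstream of the canonical FASN start. Of the 13 gene-body CTCF peaks, 11 were higher in senescent cells, with a median of 0.21 (0.036 over all gene-body CTCF peaks), and none of them was called (4.8% of all gene-body CTCF peaks) or had an unadjusted p under 0.05. For 5 of the 13 there is no adjusted p. Most of the 13 lay in ACACA. The ACACA peak of 418.1 counts also lay 1533 bp from a C17orf78 start. Among all CTCF peaks, such a peak was counted as a promoter peak and not as a gene-body peak. The 13 had a median GC content of 42.4%. Over all CTCF peaks in that GC decile (41.12% to 43.7%) the median log2 fold change was 0.091.

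The sites with the core of the CTCF motif (CCA, any 2 bases, AG, any 2 bases, GGC) are shown because this core is the best known feature of CTCF binding sites. An exact match on either strand was found in 4 of the 28 peaks (14.3%), against 23.6% of all CTCF peaks, 32.8% of those with at least 50 counts, and 3.4% of the same intervals moved by 10 kb. Each is printed on the strand of the match with the core in capitals. The ACACA sites lie at chr17:37047820-37047849 (minus strand), chr17:37239891-37239920 (minus) and chr17:37373167-37373196 (minus), and the SREBF1 site at chr17:17844408-17844437 (plus). The last line gives the central 150 bases of the lost peak near INSIG1 (chr7:155372602-155372751, plus strand), where no exact core was found. An exact search misses sites that differ from the core, so this does not show that the peak lacks a CTCF site.
ACACA, beyond the 3′ end: ccgaatctgCCACAAGGTGGCagtacacga
ACACA, middle of the gene: tgcttcctgCCACAAGATGGCagtgaaaca
ACACA, between the upstream promoters: tcaaaatatCCAGGAGTAGGCcgggcaccg
SREBF1, upstream: gccccaagaCCACCAGGTGGCatggtgggg
INSIG1, lost peak: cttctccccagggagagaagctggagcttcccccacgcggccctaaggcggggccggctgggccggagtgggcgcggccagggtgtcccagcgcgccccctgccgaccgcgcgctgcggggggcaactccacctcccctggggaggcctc

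In the same order, the peaks around the 4 cores held 312.3, 106.8, 418.1 and 51.39 counts. Their log2 fold changes were -0.02 (SE 0.14), 0.25 (SE 0.24), -0.02 (SE 0.12) and -0.22 (SE 0.30), and none was called.

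Enhancers, listed where H3K27ac and H3K4me1 signals overlapped, were compared between the states. The lists come from the same H3K27ac libraries as the fold changes and are not independent of them. Of the 14 enhancers of these genes in non-senescent cells, 11 (78.6%) overlapped an enhancer of the other state, against 70.6% of all. Of the 15 in senescent cells, 10 (66.7%) did, against 79.5% of all. ACACA had 6 enhancers in non-senescent cells, all shared, and 10 in senescent cells, of which 4 were listed there only. These 4 lay in H3K27ac peaks that were not called, with log2 fold changes of 0.54, 0.41, 0.42 and 0.21. In non-senescent and senescent cells, INSIG1 had 2 and 1, SCD 3 and 1, HMGCS1 2 and 1, and SQLE 1 and 2. Of the 3 SCD enhancers of non-senescent cells, 2 overlapped the 1 of senescent cells and 1 was non-senescent only. None was listed for SREBF1, SREBF2 or FASN. The non-senescent-only SCD enhancer, 3080 bp upstream of the start, lay in the promoter peak whose log2 fold change was 0.04. The senescent-only SQLE enhancer lay in the SQLE promoter peak, whose log2 fold change was -0.14.

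The rest of the pathway was described on 1 promoter peak per gene, the one with the highest mean count, in 58 genes that include the 8. All 58 had an H3K27ac promoter peak, as did 13059 of all 19676 protein-coding genes. Of these, 2 were gained and 1 was lost, against 3.15% gained and 8.94% lost over all 13059 protein-coding genes with such a peak. The gained promoters were those of ABCA1, which exports cholesterol from cells, and ACACB, the carboxylase whose malonyl-CoA acts at mitochondria. ABCA1 (chr9:104925758-104928611, 639.9 counts) had a log2 fold change of 1.32 (SE 0.09, adjusted p = 3.39e-42). ACACB (chr12:109109025-109118907, 2891 counts) had 0.62 (SE 0.06, adjusted p = 9.41e-23). The lost promoter was that of ME1, the malic enzyme that supplies NADPH, with -1.41 (SE 0.32, adjusted p = 7.45e-05) on 43.32 counts.

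The 22 cholesterol synthesis enzymes had 0 called promoters by DESeq2 (8 with an unadjusted p under 0.05). Of the 22, 14 were lower, with a median of -0.056, against 5832 lower of 13059 and a median of 0.038 over all promoters. The adjusted p was passed by 5 of the 22, against 5731 of 13059 over all promoters. These 5 were all lower: LBR (-0.50, SE 0.13), MSMO1 (-0.39, SE 0.06), HMGCS1 (-0.32), EBP (-0.31, SE 0.10) and HSD17B7 (-0.25, SE 0.07). The other enzymes of the list ranged from -0.18 (NSDHL) to 0.19 (TM7SF2).

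Among 16 fatty acid enzymes and carriers the median was 0.054, with 10 higher. In all, 8 of the 16 passed the adjusted p, against 5731 of 13059 over all promoters. Besides ACACB and ME1, 6 passed it below the fold threshold. GPAM, the first step of triglyceride synthesis, had 0.57 (SE 0.08), ACLY, which makes cytosolic acetyl-CoA, 0.21 (SE 0.06), SLC25A1, the citrate carrier, 0.20 (SE 0.08), and ACACA 0.22. ELOVL6 had -0.34 (SE 0.06) and ACSS2 -0.22 (SE 0.07). FADS1 and FADS2 share 1 peak, which had 0.12 (SE 0.06).

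Among the 10 regulators the median was 0.12, and 5 passed the adjusted p, against 5731 of 13059 over all promoters. SREBF1 (0.22) and NR1H2, which encodes the sterol sensor LXRβ (0.49, SE 0.09), passed the adjusted p as higher. SREBF2 (-0.24), INSIG1 (-0.22) and MLXIPL, which encodes the glucose-responsive factor ChREBP (-0.30, SE 0.06), passed it as lower. The machinery that moves and cuts SREBP did not pass it: SCAP had 0.18 (SE 0.12), INSIG2 0.21 (SE 0.16), MBTPS1 -0.04 (SE 0.07) and MBTPS2 0.24 (SE 0.13). Among the 10 uptake and transport genes the median was -0.017, and 6 passed the adjusted p, beside the same 5731 of 13059. Apart from ABCA1, 5 of these passed it below the fold threshold, including the following. ABCG1, another exporter, had 0.52 (SE 0.06), MYLIP, a ubiquitin ligase, 0.29 (SE 0.07), and SOAT1, which esterifies cholesterol, 0.20 (SE 0.07). NPC1, which frees cholesterol from lysosomes, had -0.20 (SE 0.08).

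**Figure D4:**
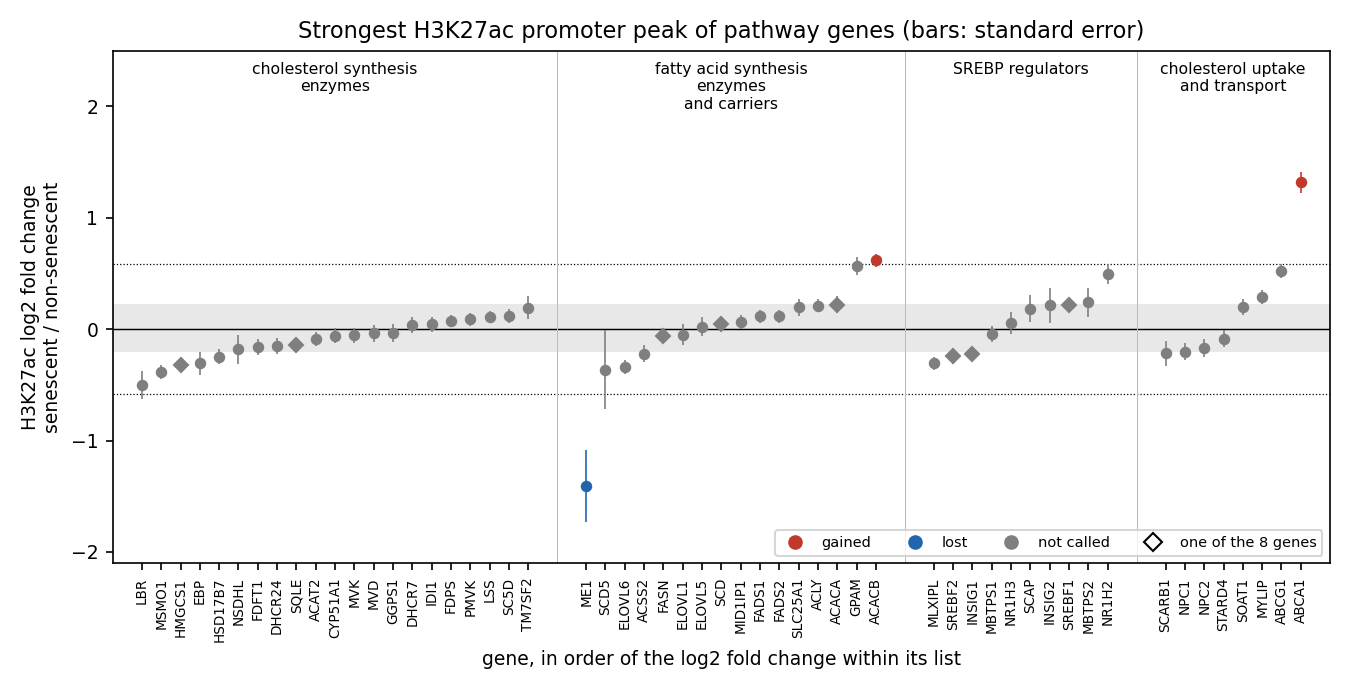
Log2 fold change (senescent over non-senescent, ± SE) of the strongest H3K27ac promoter peak of the pathway genes reported here, by list, with the 8 genes as diamonds; the grey band is the interquartile range over all 13059 genes with such a peak (-0.19 to 0.22) and dotted lines mark a fold change of 1.5. ABCA1 (1.32) and ACACB (0.62) are gained and ME1 (-1.41) is lost.

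CTCF peaks stood at 35 of the 58 promoters. None was called by DESeq2, against 0.491% gained and 4.61% lost over the 9366 genes with a CTCF promoter peak, and 2 had an unadjusted p under 0.05. Of the 35, 7 have no adjusted p and could not be called. Of the same 35, 24 were lower, with a median of -0.13 against -0.17 over all of those genes.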

How the data were processed

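Groups (antibody and state) come from the labels of the ChIP-seq libraries. Per the study's methods, the authors aligned reads to hg38 with Bowtie2, called peaks with HOMER (H3K27ac) or MACS2 (CTCF, Rb) and compared raw read counts in peaks with DESeq2. Versions are not given in the sources used here. The deposited tables hold that comparison. The deposited mean signal is the mean of read counts over size factors, and the deposited log2 fold change has its standard error. The deposited Wald score, p-value and adjusted p-value are the authors', and 11972 CTCF peaks have no adjusted p-value. Mean counts sum to 19239499 (H3K27ac) and 6136424 (CTCF). No column was left unmapped. With no counts per library in the tables, no model was refitted and thresholds were applied to the deposited values. Per the methods CTCF peaks were filtered for the CTCF motif. An exact core was matched in 23.6% of the deposited peaks, which cannot show whether they were filtered. At the thresholds above, 1180 were gained and 1690 lost, more of each than the paper reports for sites with the motif. The deposited peaks therefore include called ones beyond the paper's motif sites.

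Start sites are those of protein-coding transcripts of GENCODE 44, starts of regions were read as BED starts, and overlaps are of at least 1 bp (Python 3.11.15, pandas 2.3.3, scipy 1.17.1, pysam 0.24.0). Calls, adjustments and joins were tested on simulated data. Lists of 58 pathway genes and 22 markers were written by hand. The genes and lists were chosen with earlier results of these data known. Named were the peaks at the 8 genes' promoters, all called peaks (at most 5 a gene, by adjusted p), the highest and lowest peak of a gene, pathway genes with a called promoter and SCAP, INSIG2, MBTPS1 and MBTPS2; other names were chosen after their values were seen. Some genes of the lists are counted but not reported here by name. Alternatives changed thresholds, test, count filter, GC centring, distances, windows and the choice of start sites.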

Additional observations from a re-analysis of the deposited data

How the results depend on the processing

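No paired analysis was possible because the tables hold no values per library. For the same reason leaving out each replicate in turn, and another normalization (TMM), were not run. The 8 called H3K27ac peaks of the genes became 3 (0 gained, 3 lost) at a fold change above 2, 20 (10 gained, 10 lost) with the adjusted p alone, 0 when tested against a fold change of 1.5 (over all peaks, 2391 of 11643), and 4 (3 gained, 1 lost) with the start sites of all transcripts. The 3 called pathway promoters became 24 with the adjusted p alone and 1 in the test against a fold change of 1.5. Over all H3K27ac peaks, 5000 were called at a fold change above 2 and 20193 with the adjusted p alone.

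The 1 called CTCF peak fell to 0 in the test against a fold change of 1.5, with a mean count of at least 50, after GC centring, within 50 kb, and with the start sites of all transcripts. The 0 called CTCF promoters of the pathway became 4 (1 gained, 3 lost) by the mean over all peaks of a promoter, with no test. Over all CTCF peaks the 2870 calls ranged from 12 in the test against a fold change of 1.5 to 5252 with the adjusted p alone. They were 885 at a fold change above 2, 1784 with a mean count of at least 50, 1289 after GC centring and 1075 at an adjusted p under 0.05. Of these, the share gained was 41.1% as reported, 20.7% at a fold change above 2, 51.8% with a mean count of at least 50 and 33.4% after GC centring. GC centring turned the sign at the FASN promoter for H3K27ac (0.045) and at the ACACA (0.20) and FASN (0.075) promoters for CTCF. Of the 11 shared non-senescent enhancers, 7 stayed shared at a reciprocal overlap of 50%. The other 29 recomputed counts of these comparisons stayed within 1.5 times the reported ones. Weak peaks limit precision. With 19.23 counts, the lost CTCF peak has a 95% interval of the log2 fold change from -2.52 to -0.63.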
